A study of Mus musculus with 4 samples.

Results

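The DNA methylation of 10 germ cell genes was followed in the embryonic mouse brain, a somatic tissue. The genes were Dazl, Ddx4, Mael, Asz1, Sycp1, Sycp3, Hormad1, Smc1b, Stra8 and Tex101, listed as genes that are methylated in somatic tissue, and each was read over the start site window (1 kb on each side of the transcription start site, TSS) and over the gene body (the rest of the gene record). All 10 genes could be tested, among 19820 protein-coding genes on chromosomes 1 to 19 with enough data at the start site and 19444 over the gene body. The windows of the 10 genes held 409 CpGs covered by 5 or more reads in all 4 libraries, of 14907672 such CpGs on chromosomes 1 to 19, and their gene bodies held 1760.

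Whole-genome bisulfite sequencing (WGBS) was done on the brains of 4 male embryos at stage E11.5 (days of embryonic development), with 1 library per group. Bisulfite converts unmethylated cytosine, which is then read as thymine, so a methylation level is the percentage of reads over a CpG that still carry cytosine. The study describes no oxidative step for these libraries, unlike its other bisulfite libraries. Levels can therefore include 5-hydroxymethylcytosine, the oxidised form of 5-methylcytosine. By dot blot the study found that form only close to background in E11.5 WT and KO brains. The groups were a Tet1 homozygous knockout (KO) and a wild-type (WT) embryo from dams fed an excess of folic acid (FA, 30 ppm), and a KO and a WT embryo from dams fed a control diet (3 ppm FA). Both diets also held succinyl sulfathiazole, an antibiotic that reduces folate made by gut bacteria. By the labels each embryo came from a different timed pregnancy, so no KO embryo was a littermate of a WT embryo. The study's sample list scores the pair of KO embryos as having a neural tube defect and the pair of WT embryos as normal, so genotype cannot be told apart from the defect. All embryos were of the 129S6.cg Tet1 tm1Koh congenic strain, bred from heterozygous parents, and the KO allele carries a cassette at the first coding ATG of Tet1, which encodes a dioxygenase that oxidises 5-methylcytosine. Whole brains were dissected from the forebrain to the hindbrain above the otic vesicle, so each level is an average over all cell types of the tissue. Reads were aligned to the C57BL/6J reference, which differs from 129S6 in sequence, so a reference CpG may not be a CpG in these embryos. Methylation levels do not report the Tet1 transcript, and the genotype was taken from the labels. Mean depth over the autosomal CpGs listed in each library was between 13.2 and 21.2 reads, with the KO library at 3 ppm the deepest. Only CpGs with 2 or more reads are listed, so the depth over all autosomal CpGs is lower. The methylated share over mitochondrial CpGs, which bounds failed conversion from above, was 0.914% to 0.938%. With a single embryo per group, every Fisher's exact test below compares 2 libraries and not the conditions. Intervals cover counting error only. They and the tests on read counts take the counts as independent, but 1 read is counted at every CpG that it spans. The intervals are therefore too narrow, and the p-values of Fisher's exact test and of the Wald test below are too small.

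Germ cell genes of this kind encode the machinery of meiosis, of germline RNA control and of the piRNA pathway, which silences transposons. Their promoters are often rich in CpGs, yet they become methylated by the de novo DNA methyltransferases around implantation and stay so in somatic cells, whereas most CpG-rich promoters remain free of methylation. E2F6, MGA and MAX, partners in a variant Polycomb complex that binds E2F motifs and E-boxes, are among the factors that recruit silencing to them, and TET1 takes part in their activation in primordial germ cells. Folate supplies the methyl groups used by DNA methyltransferases.

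The DNA just before the start sites is printed for 5 of the genes, which stand for the patterns found. Dazl and Sycp1 are CpG-rich and methylated, Hormad1 holds an E2F motif and a pair of E-boxes whose CpGs could be read, Smc1b is the unmethylated exception, and Stra8 is CpG-poor. Each run reads 5′ to 3′ on the strand of the gene and ends at the base before the first transcribed base, in build GRCm38, and CpGs are in capitals. The Dazl run is chr17:50293637-50293886 (minus strand) with 19 CpGs, the Sycp1 run chr3:102936101-102936350 (minus strand) with 17, the Hormad1 run chr3:95559427-95559676 (plus strand) with 19 and the Stra8 run chr6:34919913-34920162 (plus strand) with 7. The Smc1b run, chr15:85131965-85132077 (minus strand), is the whole 113 bp between the start of Smc1b and that of Ribc2, which is transcribed the other way, and holds 13 CpGs.
Dazl: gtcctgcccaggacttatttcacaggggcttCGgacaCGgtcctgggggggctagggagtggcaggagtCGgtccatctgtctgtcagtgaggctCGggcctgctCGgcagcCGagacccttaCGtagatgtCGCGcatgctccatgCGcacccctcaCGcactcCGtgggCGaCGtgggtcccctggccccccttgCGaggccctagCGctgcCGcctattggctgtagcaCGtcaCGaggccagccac
Sycp1: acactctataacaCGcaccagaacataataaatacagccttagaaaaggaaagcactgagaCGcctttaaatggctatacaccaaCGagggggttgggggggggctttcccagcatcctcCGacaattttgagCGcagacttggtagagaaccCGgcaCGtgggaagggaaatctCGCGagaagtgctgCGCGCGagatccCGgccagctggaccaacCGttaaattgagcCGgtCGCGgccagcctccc
Hormad1: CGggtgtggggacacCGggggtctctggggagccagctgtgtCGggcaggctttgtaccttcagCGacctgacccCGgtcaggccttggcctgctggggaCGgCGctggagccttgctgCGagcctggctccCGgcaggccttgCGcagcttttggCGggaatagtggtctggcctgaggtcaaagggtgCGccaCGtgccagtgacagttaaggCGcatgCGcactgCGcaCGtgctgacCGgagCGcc
Smc1b: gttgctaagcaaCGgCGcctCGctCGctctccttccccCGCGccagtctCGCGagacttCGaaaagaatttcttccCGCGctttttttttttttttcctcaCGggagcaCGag
Stra8: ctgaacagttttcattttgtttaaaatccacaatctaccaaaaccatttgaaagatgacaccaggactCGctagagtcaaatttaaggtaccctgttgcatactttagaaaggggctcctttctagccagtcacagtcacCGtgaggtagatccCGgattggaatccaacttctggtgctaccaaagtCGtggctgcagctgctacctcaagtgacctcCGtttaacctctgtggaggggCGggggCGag

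Over the start site window as a whole, all but 1 of the genes were heavily methylated in every brain, the exception being Smc1b. Next to the start itself, levels were lower in Ddx4 (52.4% to 78.3% in the 250 bp after it, over all CpGs listed). They were also lower in Stra8 (34.9% to 70.8% in the 250 bp before it). Over the windows the 9 genes ranged from 78.0% (Stra8, WT at 30 ppm) to 93.0% (Sycp1, WT at 30 ppm), while Smc1b lay between 15.5% and 24.7%. The median over the 10 genes was 86.7%, 90.0%, 87.3% and 86.9% in the KO at 30 ppm, the WT at 30 ppm, the KO at 3 ppm and the WT at 3 ppm, beside 44.5%, 35.97%, 44.4% and 35.5% over all protein-coding genes tested. High methylation was what the genes were listed for, so these levels are a description and were not tested.

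The contrast with other genes was wide for the CpG-rich promoters. The observed over expected CpG ratio compares the CpGs of a window with the number its base composition would give, and 7275 start sites had a ratio of 0.6 or more. The median level of those 7275 was 20.6%, 14.6%, 20.3% and 14.5% in the same order of libraries. Only 25 of them (0.344%) were at 80% or more in all 4 libraries, and 4 of those 25 were Dazl (ratio 0.760), Sycp1 (0.693), Ddx4 (0.635) and Mael (0.606), which were all the listed genes in that class. The trait was not particular to the listed genes. The 25 also held the germ cell genes D1Pas1 (0.680) and Rpl10l (0.658), named after their values were seen. These levels rest on the CpGs with 5 or more reads in every library. Over all CpGs listed in a library, which differ between libraries, Dazl was at 64.6%, 86.7%, 73.8% and 76.3% and Ddx4 at 80.2%, 74.1%, 82.4% and 76.7%, so that 2 of the 4 genes fell below 80% in at least 1 library, while Sycp1 and Mael stayed at 88.6% or more. At the CpG-poor end, Stra8 (0.291) and Tex101 (0.349) fell in a class in which high levels were common, since 42.5% of the 7909 start sites with a ratio under 0.4 were at 80% or more in all 4 libraries.

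**Figure D1:**
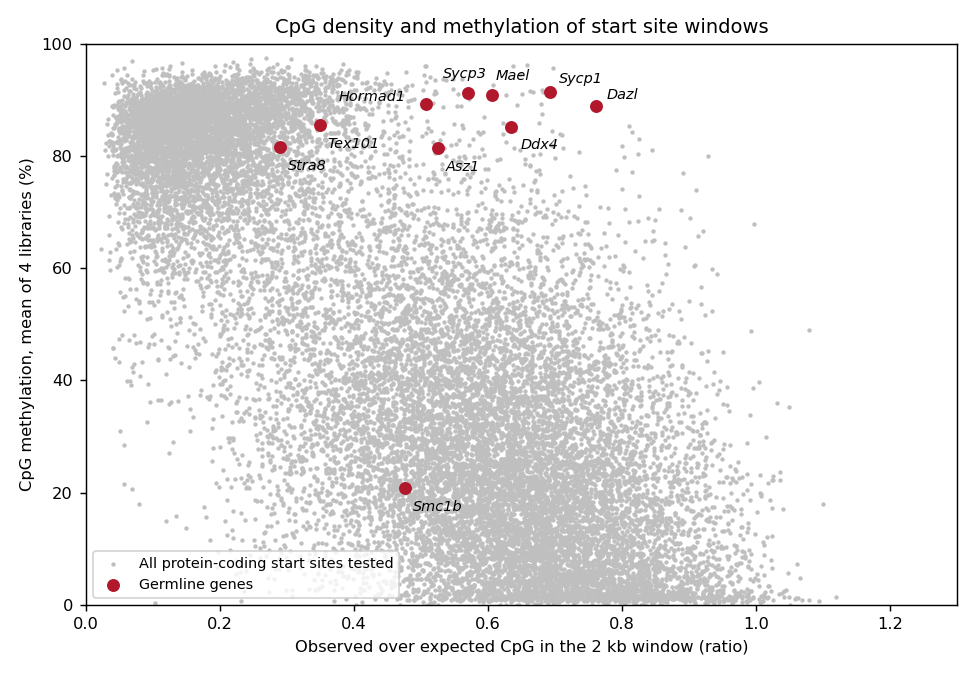
Methylation of start site windows against CpG density. The horizontal axis is the observed over expected CpG ratio in the window, the vertical axis is the mean methylation level of the 4 libraries in percent, grey points are the 19820 protein-coding start sites and red points the 10 germline genes. Dazl, Sycp1, Ddx4 and Mael stand above the bulk of the CpG-rich start sites, and Smc1b, at a lower ratio of 0.477, is the only germline gene at a low level.

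Dazl encodes an RNA-binding protein that germ cells need to enter gametogenesis. Its start site (chr17:50293636, minus strand) was methylated at 85.5% in the KO at 30 ppm (95% Wilson interval 82.6% to 87.9%), 91.3% in the WT at 30 ppm (89.0% to 93.1%), 87.6% in the KO at 3 ppm (85.6% to 89.3%) and 91.3% in the WT at 3 ppm (89.3% to 93.0%). Both KO libraries were below both WT libraries. Ddx4, which encodes the germ cell RNA helicase also known as VASA (chr13:112652475, minus strand), was at 88.0%, 84.2%, 85.0% and 83.4% in the same order. Its intervals overlapped widely, and it rested on 13 of the 91 CpGs of its window. None of those 13 lay in the 250 bp before or the 250 bp after the start. Over the 36 CpGs listed in the 250 bp after the start, the levels were 73.1% (128 of 175 reads), 57.8% (37 of 64), 78.3% (397 of 507) and 52.4% (66 of 126). Each KO library was thus above the WT library of the same diet there. The listed CpGs differed between libraries, and these levels were not tested.

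Mael and Asz1 act in the piRNA pathway, Asz1 as a scaffold at the mitochondrial surface. Mael (chr1:166238744, minus strand) was at 92.6%, 90.1%, 90.3% and 90.9% in the KO at 30 ppm, WT at 30 ppm, KO at 3 ppm and WT at 3 ppm. Asz1 (chr6:18109057, minus strand) was at 81.9%, 81.2%, 81.9% and 80.9%, and was the only one of the 10 with all its reference CpGs in use (50 of 50). Of these, 6 were isolated low CpGs, at 10% or less in all 4 libraries while the nearest CpG in use on each side was at 50% or more in all 4. Without them Asz1 was at 93.7%, 92.6%, 94.2% and 92.5%, and whether these embryos carry CpGs at the 6 bases was not tested. Dazl and Sycp1 had 1 such CpG each and the other 7 genes 0, making 8 of 409 CpGs (1.96%), beside 1.31% of all autosomal CpGs in use. The Wilson intervals of the 4 libraries overlapped at both genes.

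The synaptonemal complex joins paired chromosomes in meiosis, with SYCP1 in its transverse filaments and SYCP3 in its lateral elements. Sycp1 (chr3:102936100, minus strand) was at 92.4%, 93.0%, 89.8% and 90.9% in the KO at 30 ppm, WT at 30 ppm, KO at 3 ppm and WT at 3 ppm. Sycp3 (chr10:88459569, plus strand) was at 90.0%, 92.8%, 91.4% and 91.1%, from 15 of 66 CpGs. Over all CpGs listed in a library, which differ between libraries, Sycp3 was at 86.1%, 85.6%, 78.6% and 77.4%. Hormad1, which encodes a protein of the meiotic chromosome axis (chr3:95559677, plus strand), was at 89.5%, 90.2%, 87.0% and 90.3%. At each of these 3 genes the intervals of the 4 libraries overlapped.

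Smc1b encodes a cohesin subunit of meiotic chromosomes. Its start site (chr15:85131964, minus strand) was at 24.7% in the KO at 30 ppm (interval 20.03% to 29.9%), 15.5% in the WT at 30 ppm (12.3% to 19.3%), 23.8% in the KO at 3 ppm (20.2% to 27.9%) and 19.4% in the WT at 3 ppm (15.6% to 23.9%). Here both KO libraries were above both WT libraries, although the intervals overlapped at 3 ppm. It was the only listed gene with another protein-coding start within 1 kb, that of Ribc2 at 114 bp.

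Stra8 encodes a factor that retinoic acid induces at the entry into meiosis. Its start site (chr6:34920163, plus strand) was at 78.7% in the KO at 30 ppm, 78.0% in the WT at 30 ppm, 88.1% in the KO at 3 ppm and 81.8% in the WT at 3 ppm, so that the KO at 3 ppm stood above the other 3. Tex101, which encodes a glycoprotein of the germ cell surface (chr7:24672050, minus strand), was at 82.1%, 89.9%, 87.0% and 83.5%, with the KO lower than the WT at 30 ppm and higher at 3 ppm.

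**Figure D2:**
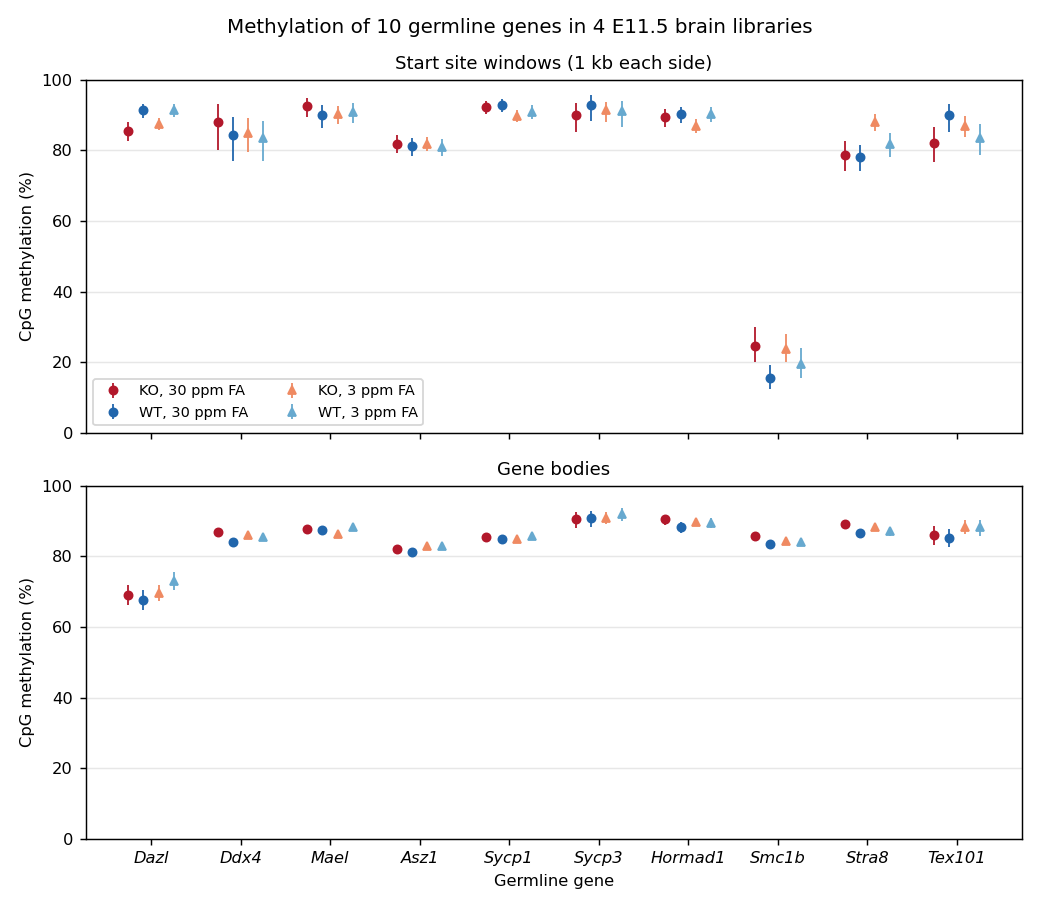
Methylation level in percent (vertical axes) of the 10 germline genes in the 4 libraries, over the start site windows (upper panel) and the gene bodies (lower panel). Red and orange points are KO, dark and light blue points WT, circles 30 ppm and triangles 3 ppm FA, and bars are 95% Wilson intervals for counting error. Smc1b is low only at its start site, and Dazl has the lowest gene body.

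The first question was whether loss of Tet1 changed these promoters. A gene was called when Fisher's exact test gave a Benjamini-Hochberg adjusted p under 0.05 over all genes tested and the levels differed by at least 10 percentage points. No gene of the 10 was called between KO and WT at 30 ppm, where 16.1% of all start sites were called (15.7% higher and 0.318% lower), nor at 3 ppm, where 17.5% were (17.1% higher and 0.409% lower). Among the 4603 start sites with a mean level of 80% or more the share called was 3.04% at 30 ppm and 2.41% at 3 ppm. At 30 ppm the median of KO minus WT was 0.03 points over the 10 genes, 3.98 over all genes and 1.70 over the 4603 methylated start sites. At 3 ppm these medians were 0.68, 3.38 and 0.27 points.

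Without the minimum of 10 points, 3 of the 10 genes passed Fisher's exact test in a KO versus WT comparison, and they did not move the same way. Dazl was lower in the KO, the difference being -5.83 points at 30 ppm (adjusted p = 0.00536) and -3.77 points at 3 ppm (adjusted p = 0.0231). Loss at both diets was rare: at that threshold 7 of 19820 start sites (0.0353%) were lower in the KO at both diets, as were 0.0652% of the 4603 methylated start sites, and 12.6% of all start sites were higher at both. Smc1b was 9.19 points higher in the KO at 30 ppm (adjusted p = 0.0195) and 4.40 points higher at 3 ppm (adjusted p = 0.299). Stra8 was 0.61 points higher in the KO at 30 ppm (adjusted p = 0.966) and 6.31 points higher at 3 ppm (adjusted p = 0.0143). The shares of all start sites that passed at this threshold were 21.7% higher and 0.51% lower at 30 ppm, and 26.7% higher and 1.05% lower at 3 ppm.

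These 3 differences were sensitive to the reads and windows used. When only CpGs of 10 or more reads were kept, Dazl differed by 0.53 points at 30 ppm (KO minus WT) and by -1.498 points at 3 ppm, and Smc1b by -4.63 points at 30 ppm, none of them past Fisher's exact test. Other settings turned differences into calls. Smc1b was called at 30 ppm with a window of 2 kb on each side (10.99 points, where 16.1% of all start sites were called), and Stra8 was called at 3 ppm with CpGs of 10 or more reads (11.4 points, 15.2% of all called) and with a window of 500 bp on each side (17.9 points, 1695 of 16876 start sites called). When every CpG was thinned to equal depth, Fisher's exact test was still passed by Dazl at 30 ppm (a difference of -5.16 points, adjusted p = 0.0387). Fisher's exact test was then not passed by Dazl at 3 ppm (adjusted p = 0.384), Smc1b at 30 ppm (adjusted p = 0.204) or Stra8 at 3 ppm (adjusted p = 0.0608). Thinning leaves fewer reads. With the minimum of 10 points, the share of all start sites called fell with it from 16.1% to 10.8% at 30 ppm and from 17.5% to 9.37% at 3 ppm.

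**Figure D3:**
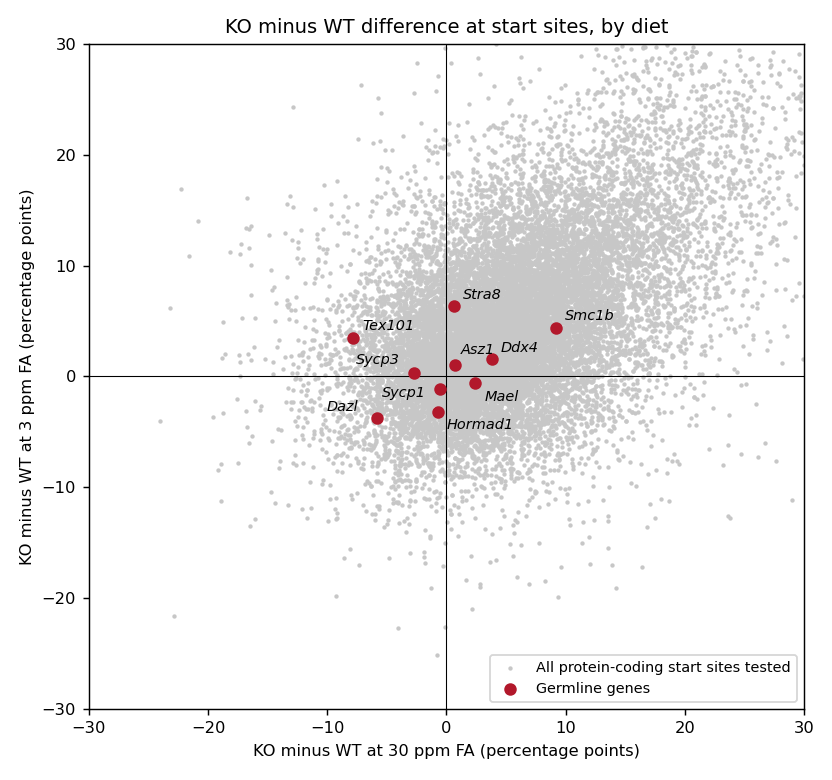
Difference in start site methylation, KO minus WT, in percentage points, at 30 ppm FA (horizontal axis) and 3 ppm FA (vertical axis). Grey points are all protein-coding start sites tested, of which 214 lie outside the axes of 30 points, and red points are the 10 germline genes. The bulk of the grey points lies above and to the right of the crossing lines, while the germline genes lie around them, with Dazl to the lower left and Smc1b to the upper right.

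Limma with genotype and diet in the model had 1 residual degree of freedom per gene, since each group held a single library. Unlike the tests above, its error came from differences between embryos. These cannot be told apart from a genotype effect that differs between diets. Limma called none of the 10 genes for genotype (adjusted p = 0.147 for Dazl and 0.210 for Smc1b), while it called 1598 of 19820 start sites (8.06%). At an unadjusted p under 0.05, 1 of the 10 genes (Dazl) and 5837 start sites passed in limma.

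The second question was the maternal diet. Between 30 and 3 ppm FA no gene of the 10 was called in the KO (1.23% of all start sites called) or in the WT (0.782% called). Without the minimum of 10 points, Stra8 was lower at 30 than at 3 ppm, with a difference of -9.42 points in the KO (adjusted p = 0.0123 in Fisher's exact test, 0.838% of start sites lower) and of -3.73 points in the WT (adjusted p = 0.645), and no other listed start site passed in either genotype. The differences of the 10 genes lay between -9.42 and 3.02 points in the KO and between -3.96 and 6.39 points in the WT, with 5 genes above 0 in each. For diet limma called none of the 10 genes and 0 of 19820 start sites (0%), with 924 start sites at an unadjusted p under 0.05.

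The third question was whether the effect of Tet1 loss differed between the diets. A Wald test of the difference between the log odds ratios of the 2 diets passed for 0 of the 10 genes (Benjamini-Hochberg adjusted p from 0.167 for Tex101 to 0.982 for Asz1, in the fit across all start sites) and for 1.35% of all start sites. In Tex101 the KO differed from the WT by -7.82 points at 30 ppm but by 3.49 points at 3 ppm, the widest gap between diets among the 10.

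Within the windows methylation was far from even, and levels were therefore also read in bins of 250 bp over all CpGs listed in a library, which were not tested. In Dazl the 250 bp before the start were at 91.6%, 94.8%, 91.8% and 93.0% in the KO at 30 ppm, WT at 30 ppm, KO at 3 ppm and WT at 3 ppm. From 0 to 499 bp after the start, over the first exon (230 bp) and the beginning of the first intron (4168 bp), the levels were 76.6%, 87.5%, 74.7% and 81.5%. Both KO libraries were thus close to the WT before the start and below it after the start.

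Methylation of Dazl then dropped sharply inside the first intron. From 500 to 999 bp the level was 1.59% (4 of 252 reads) in the KO at 30 ppm and 0.495% (1 of 202 reads) in the KO at 3 ppm. In the WT it was 0 of 39 reads at 30 ppm, which allows up to 7.69%, and 0 of 169 reads at 3 ppm, which allows up to 1.78%. These bounds take the counts as independent. Because 1 read is counted at every CpG that it spans, the true bounds are wider. The bin from 1000 to 1249 bp was at 21.3%, 14.3%, 15.5% and 22.3%. An unmethylated stretch in the intron thus lay beside a methylated promoter in all 4 brains, and only 1 of its CpGs reached 5 reads in all libraries, so that the window value of Dazl mostly leaves it out. A single CpG 679 bp before the start was also read as unmethylated in all 4 libraries (0 of 59 reads, which allows up to 5.08%) between CpGs near 100%. This is the isolated low CpG of Dazl counted above, and whether these embryos carry a CpG at that base was not tested.

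Smc1b had the inverse profile, a narrow unmethylated core in methylated flanks. The 250 bp before its start, which hold the start of Ribc2, were at 4.27%, 1.099%, 3.41% and 2.18% in the KO at 30 ppm, WT at 30 ppm, KO at 3 ppm and WT at 3 ppm. The levels of its edges were intermediate. From 500 to 251 bp before the start the levels were 29.7% (19 of 64 reads), 9.32% (11 of 118), 37.5% (36 of 96) and 17% (17 of 100). From 0 to 249 bp after the start they were 36.4% (24 of 66 reads), 13.3% (12 of 90), 46.7% (113 of 242) and 32.0% (31 of 97). On both edges each KO library was above the WT library of the same diet, but the Wilson intervals of the downstream edge overlapped at 3 ppm (40.5% to 53.0% in the KO and 23.5% to 41.8% in the WT). That edge also rested on different CpGs in different libraries, and over the 4 CpGs with 5 or more reads in all libraries it was at 22.2% (6 of 27 reads), 6.67% (3 of 45), 28% (14 of 50) and 19.4% (6 of 31), with overlapping intervals at both diets. Beyond 500 bp upstream all libraries were at 78.8% or more.

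In Stra8 the 250 bp before the start were the low point of the window, at 48.2% (40 of 83 reads) in the KO at 30 ppm, 34.9% (30 of 86) in the WT at 30 ppm, 70.8% (80 of 113) in the KO at 3 ppm and 51.1% (48 of 94) in the WT at 3 ppm. The KO was above the WT at both diets, and 3 ppm above 30 ppm in both genotypes. The Wilson intervals overlapped between KO and WT at 30 ppm (37.8% to 58.8% and 25.7% to 45.4%). They also overlapped between the diets in the WT (25.7% to 45.4% at 30 ppm and 41.1% to 60.9% at 3 ppm). RefSeq places the start of Stra8 785 bp further downstream. Sycp1 was even across its window, with every bin from 1000 bp before to 999 bp after the start at 85.2% or more in all 4 libraries.

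Motifs for silencing factors were searched by letters in the window of 250 bases before to 50 after each start in RefSeq (GRCm38), on both strands. The E2F core TCCCGC occurred in 6 of the 10 genes and in 26.9% of the 19167 promoters of that table. The E-box CACGTG occurred in 5 of the 10 genes and in 8.05% of promoters, and both motifs occurred together in 5 of the 10 (Ddx4, Mael, Sycp1, Sycp3 and Hormad1) and in 2.77% of promoters. A match is a run of letters and not a bound site.

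CpGs inside the 2 motifs varied between genes, and many had few reads. In the E2F core, the 4 CpGs of Mael, Sycp1, Sycp3 and Hormad1 with 5 or more reads in every library were together at 97.5% (39 of 40 reads), 95.1% (39 of 41), 88.7% (47 of 53) and 89.1% (41 of 46) in the KO at 30 ppm, WT at 30 ppm, KO at 3 ppm and WT at 3 ppm. The E2F core CpG of Ddx4, which fell short of that minimum, was lower, with 4 of 6 reads methylated in the KO at 30 ppm, 1 of 2 in the WT at 30 ppm and 8 of 12 in the KO at 3 ppm. The E2F core of Smc1b was unmethylated in every library (0 of 40 reads in all, which allows up to 7.5%). The E-box CpGs of Hormad1, 55 and 18 bp before the start, were together at 66.7%, 71.0%, 60% and 57.7%, while the other 15 CpGs from 120 bp before to 50 bp after the start were at 96.6%, 91.4%, 92.5% and 94.3%. In every library the E-box CpGs were below the summed others, while single CpGs overlapped somewhat, from 50% to 81.8% inside the E-boxes and from 77.8% to 100% outside. Beyond that stretch, CpGs outside the E-boxes were also low in single libraries. In the KO at 3 ppm, the CpG 250 bp before the start was at 52.4% and that 206 bp after it at 50%. The contrast thus depends on the stretch compared. It was noticed in these data and was not tested. The E-box CpGs of Sycp3, Ddx4 and Mael did not reach 5 reads in every library. The pair in Sycp3 had 7 of 13 and 8 of 14 reads methylated in the KO at 30 ppm, 9 of 18 and 12 of 18 in the KO at 3 ppm, and 4 of 11 and 4 of 10 in the WT at 3 ppm. The E-box CpG of Ddx4 had 0 of 4 reads methylated in the KO at 30 ppm, 11 of 15 in the KO at 3 ppm and 2 of 5 in the WT at 3 ppm, and that of Mael 3 of 6 in the KO at 30 ppm, 5 of 5 in the WT at 30 ppm and 4 of 9 in the KO at 3 ppm. The E-box CpG of Sycp1 was high, with 8 of 9, 5 of 5, 12 of 12 and 8 of 10 reads methylated in the 4 libraries.

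Lower methylation inside E-boxes was also seen genome-wide, at a smaller size. Over 200381 autosomal CpGs in CACGTG the level was 80.2%, 76.7%, 79.2% and 77.4% in the same order, beside 84.4%, 82.6%, 83.7% and 83.2% over all CpGs. In the start site windows with a mean level of 80% or more, 838 E-box CpGs were at 82.9%, 77.7%, 81.0% and 79.0%, beside 85.4%, 85.0%, 84.7% and 85.1% over all 69107 CpGs.

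Over their whole length the gene bodies were mostly methylated, with a median over the 10 genes of 86.5%, 85.1%, 86.2% and 86.4% in the KO at 30 ppm, WT at 30 ppm, KO at 3 ppm and WT at 3 ppm, beside 87.0%, 85.1%, 86.4% and 85.7% over all genes. The lowest was Dazl at 69.1%, 67.6%, 69.6% and 73.2%, where the part of the first intron outside the start site window held low bins, such as that from 1000 to 1249 bp given above, and single tiles of 1 kb were low in Ddx4 (chr13:112610001-112611000, 38.4% to 50%) and Mael (chr1:166204001-166205000, 39.3% to 48.96%). By contrast the body of Smc1b was at 85.9%, 83.6%, 84.4% and 84.2%, far above its start site. No gene body of the 10 was called, where the shares of all gene bodies called were 3.09% for KO versus WT at 30 ppm, 2.68% at 3 ppm, 0.113% for 30 versus 3 ppm in the KO and 0.303% in the WT.

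Small gene body differences passed Fisher's exact test without the minimum of 10 points. At 30 ppm the KO was higher than the WT by 2.72 points in Ddx4 (adjusted p = 0.000106), by 2.26 points in Smc1b (adjusted p = 0.00822) and by 2.48 points in Stra8 (adjusted p = 0.0170), at a threshold that 44.4% of all gene bodies passed upwards. At 3 ppm Mael was lower in the KO by a difference of -2.15 points (adjusted p = 0.0163), where 3.88% of gene bodies passed downwards. Between diets Dazl was lower at 30 than at 3 ppm in the WT by a difference of -5.52 points (adjusted p = 0.0446), where 9.21% passed downwards. All 10 gene bodies were lower at 30 than at 3 ppm in the WT, with a median difference of -1.24 points, while 30.9% of all gene bodies were higher and the median over all was -0.60 points.

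In tiles of 1 kb the genes were called higher in the KO no more often than the genome. Of the 284 tiles tested in the 10 genes and their windows, 3 were called higher in the KO at 30 ppm (1.13% of all tiles called higher) and 1 at 3 ppm (1.1% called higher), and 1 was called lower at 3 ppm (0.113% called lower), by Fisher's exact test with Benjamini-Hochberg adjustment over 1863069 tiles. The 3 tiles at 30 ppm lay in Ddx4 (chr13:112635001-112636000, 91.1% in the KO and 70.2% in the WT), Smc1b (chr15:85110001-85111000, 93.1% and 80.4%) and Stra8 (chr6:34927001-34928000, 97.0% and 82.2%). At 3 ppm a tile of Smc1b (chr15:85116001-85117000) was at 94.7% in the KO and 82.3% in the WT, and a tile of Mael (chr1:166228001-166229000) at 80.1% and 93.7%. All 5 tiles lay in the gene bodies, with centres more than 7 kb after the start. When every CpG was thinned to equal depth, 0 of the 284 tiles were called at either diet. The share of all tiles called after thinning was not computed, so this count is not a result about these genes. No tile of the 10 genes was called between diets, where 0.043% of all tiles were higher and 0.0253% lower at 30 ppm in the KO, and 0.00886% higher and 0.0381% lower in the WT. None was called lower in the KO at 30 ppm (0.0487% of all tiles).

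Among the differentially methylated regions (DMRs) that the authors deposited, 2 touched the 10 genes, and neither was a gain in the KO over the WT. Of all start sites, 3.25% at 30 ppm and 3.9% at 3 ppm held a DMR higher in the KO. A DMR lower in the KO at 30 ppm lay in the first intron of Dazl (chr17:50293092-50293263), at the edge of the unmethylated stretch, as 1 of 6 start sites with such a DMR (0.0303%). The reads listed in it were methylated in 11 of 32 (34.4%) in the KO at 30 ppm, 17 of 23 (73.9%) in the WT at 30 ppm, 12 of 36 (33.3%) in the KO at 3 ppm and 16 of 59 (27.1%) in the WT at 3 ppm. It was thus the WT at 30 ppm that stood above the other 3 libraries. The other was a DMR higher at 30 than at 3 ppm in the KO, 635 bp after the start of Sycp3 (chr10:88460074-88460335), with 40 of 43 reads (93.0%) methylated in the KO at 30 ppm, 14 of 40 (35%) in the KO at 3 ppm, 18 of 27 (66.7%) in the WT at 3 ppm and no CpG listed in the WT at 30 ppm. Of all start sites, 0.0656% held such a DMR. The listed CpGs differed between libraries, so these shares rest on different CpGs.

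Other germline genes were read for comparison, in lists chosen with results of these data already known. At 80% or more in all 4 libraries were 9 of 17 piRNA pathway genes and 4 of 9 chromosome axis and synaptonemal complex genes. The same held for 3 of 15 recombination and telomere attachment genes and 13 of 21 germ cell regulators and other germ cell genes. This compares with 8 of the 10 genes and 17.7% of all start sites. Of 17 other piRNA pathway genes, 3 were called higher in the KO at 30 ppm and 2 at 3 ppm, none lower, where 15.7% and 17.1% of all start sites were called higher. At adjusted p alone in Fisher's exact test, 8 of the 17 were higher at 30 ppm (21.7% of all start sites), and 4 were higher and 1 lower at 3 ppm (26.7% and 1.05%). The median difference of the list was 5.86 and 2.14 points. Tdrd6, a Tudor domain gene of the spermatid chromatoid body, was at 80.9%, 56.1%, 77.9% and 57.2% in the KO at 30 ppm, WT at 30 ppm, KO at 3 ppm and WT at 3 ppm, with both KO libraries more than 20 points above their WT, and was called for genotype in limma (adjusted p = 0.0313), as were 8.06% of all start sites. Exd1, of the same list, was also called in limma (adjusted p = 0.0396), as was Nanos3 among the germ cell regulators below (adjusted p = 0.0465). Both were named after their values were seen. With the methylated fraction in place of the log ratio, limma called 0 of 19820 start sites for genotype, so these calls were lost. Tdrd5 was at 54.3%, 30.7%, 46.8% and 34.0%, called at both diets, and Tdrkh was 12.5 points higher in the KO at 30 ppm. These 3 start sites were CpG-rich, like Dazl, but only partly methylated in the WT.

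Among 9 genes of the chromosome axis and synaptonemal complex, 0 were called at 30 ppm by Fisher's exact test and Syce2 alone was called at 3 ppm (10.3 points higher in the KO). At adjusted p alone, 0 of the 9 were higher and 1 lower at 30 ppm, and 2 were higher and 0 lower at 3 ppm. Among 15 genes of recombination and telomere attachment, 0 were called at 30 ppm by Fisher's exact test and Terb1 was called at 3 ppm (14.7 points higher). At adjusted p alone, 2 of the 15 were higher and 1 lower at 30 ppm, and 4 were higher and 0 lower at 3 ppm. Of 21 germ cell regulators and other germ cell genes, Nobox, an oocyte transcription factor, was called at 30 ppm (10.6 points higher in the KO), and 0 at 3 ppm by Fisher's exact test. At adjusted p alone, 2 of the 21 were higher and 0 lower at 30 ppm, and 1 was higher and 3 lower at 3 ppm. The median differences of these 3 lists lay between -0.56 and 5.07 points, and each share called higher was below the 15.7% and 17.1% of all start sites, while at adjusted p alone 21.7% of all start sites were higher and 0.51% lower at 30 ppm, and 26.7% higher and 1.05% lower at 3 ppm.

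Of 12 repressors of germline genes, 11 could be tested, and their start sites were mostly low, with a median of 24.9%, 25.4%, 25.5% and 15.1% in the KO at 30 ppm, WT at 30 ppm, KO at 3 ppm and WT at 3 ppm. Ehmt2, a histone H3 lysine methyltransferase, was called at 30 ppm (12.0 points higher in the KO), and at 3 ppm Dnmt3b (21.7 points), Setdb1 (18.97 points) and Max (15.5 points) were called higher in the KO. These are 1 and 3 of 11 start sites, beside 15.7% and 17.1% of all start sites called higher. At adjusted p alone, 2 of the 11 were higher and 0 lower at 30 ppm, and 4 were higher and 1 lower at 3 ppm. Of all start sites, 21.7% were higher and 0.51% lower at 30 ppm, and 26.7% higher and 1.05% lower at 3 ppm. The additional genes at this threshold were Max at 30 ppm (21.0% in the KO and 13.5% in the WT, adjusted p = 0.0400 in Fisher's exact test), Ehmt1 at 3 ppm (5.74 points higher, adjusted p = 0.0384 in Fisher's exact test) and E2f6, all named after their values were seen. E2f6 was at 43.3% in the KO and 52.8% in the WT at 3 ppm, lower at adjusted p alone in Fisher's exact test (-9.48 points, adjusted p = 0.0365), and its difference at 30 ppm was -4.28 points (adjusted p = 0.499). Setdb1 was also called higher at 30 than at 3 ppm in the WT (22.1 points), as 0.434% of all start sites were. Setdb1 was at 33.9% in the KO at 30 ppm, 36.6% in the WT at 30 ppm, 33.5% in the KO at 3 ppm and 14.5% in the WT at 3 ppm. Over the window it was thus the WT at 3 ppm that stood below the rest, and KO minus WT at 30 ppm was -2.74 points. Its window also held authors' DMRs higher in the KO at 30 ppm (chr3:95355996-95356240, with 1 CpG in use) and at 3 ppm (chr3:95356381-95356557). Such DMRs lay in 3.25% and 3.9% of all start sites. The DMR at 3 ppm was at 34.4%, 17.1%, 23.8% and 5% in the same order, over 4 CpGs in use. Of marker promoters, 7 of 8 for neural progenitors were under 20% in all 4 libraries, while 3 of 4 for blood and 3 of 5 for endothelium were at 80% or more in all 4. The 8 neural promoters were in the CpG-rich class, in which 45.1% of start sites were under 20% in all 4, and the blood and all but 1 of the endothelium promoters were in the class with a ratio under 0.4, so these levels do not check the tissue. The exception, Kdr, had a ratio of 0.594 and was at 2.26% to 8.39%. Hes5 (21.4 points) and Spi1 (15.7 points) were called higher in the KO at 3 ppm. Promoter methylation does not measure the share of a cell type, and a part of cell composition in these results was not tested.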

How the data were processed

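WGBS libraries of 4 E11.5 male brains were compared, 1 per group. Per the labels and the study's methods, reads were trimmed (Trim Galore 0.6.10), aligned to GRCm38.p6 (mm10) and deduplicated (Bismark 0.23.1), and both strands of a CpG were merged. The authors deposited, for each CpG, the methylated fraction and the read count (2 or more), and lists of DMRs between single libraries (difference of 10% or more, 3 or more CpGs, 100 bp or more), of which only positions were used. Total counts over autosomal CpGs were 229940816 to 390694377.

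Methylated reads were the fraction times the read count. CpGs with 5 or more reads in all 4 libraries were summed over each region with 3 or more such CpGs (pandas 2.3.3). Starts were those of the principal transcript in GENCODE vM21. Fisher's exact tests were two-sided, computed from log factorials and checked against scipy 1.17.1, with Benjamini-Hochberg adjustment over all genes or tiles. The Wald test added 0.5 to each count, and limma 3.58.1 used log2 of methylated over unmethylated reads with 1 added to each. Scripts were tested on simulated data. The 10 genes were all named, and of each other list up to 4 genes called between KO and WT, largest difference first. The members and lists were chosen with earlier results of these data known. Alternatives varied the read minimum, window, start, thinning to equal depth, CpGs that looked like sequence differences between genotypes, isolated low CpGs (added after the data were seen), and thresholds. Sequences are from the RefSeq GRCm38 assembly, and all 10 genes were in its promoter table.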

Additional observations from a re-analysis of the deposited data

Results flagged for a closer look

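A pair of germline genes outside the 10 had a KO minus WT difference that differed between the diets by the Wald test, with Benjamini-Hochberg adjustment in the fit across all start sites. They were chosen after their values were seen. At Fkbp6, a piRNA pathway gene, the KO was 5.86 points above the WT at 30 ppm and 4.49 points below it at 3 ppm (-4.49), a gap of 10.4 points (adjusted p = 0.00158). At Slc25a31, an ADP/ATP carrier of the testis, the KO was 5.60 points above the WT at 30 ppm and lower at 3 ppm (-2.39), a gap of 7.98 points (adjusted p = 0.0439). Both start sites were between 83.8% and 91.5% in all 4 libraries. The test compares libraries, 1 embryo per group, and 1.35% of all start sites passed it.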

How the results depend on the processing

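With 1 embryo per group, differences between embryos cannot be told apart from genotype or diet, and leaving out a library would leave a group empty. The labels name a different timed pregnancy for each embryo, so litter cannot be told apart from genotype or diet either. No paired analysis of littermates was possible. Some windows were read in part, with 14.3% of the reference CpGs of Ddx4 and 22.7% of those of Sycp3 in use, so depth limits these genes most.

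The start site count of called genes changed from 0 to 1 at 30 ppm with no further read minimum (Ddx4, 10.8 points, 13.6% of all start sites called) and with a window of 2 kb on each side (Smc1b, 10.99 points, 16.1% of all), where the Wald count also became 1 (Smc1b, 4.07% of all). It changed to 1 at 3 ppm with 10 or more reads (15.2% of all) and with a window of 500 bp (1695 of 16876 start sites), Stra8 in both. Without the minimum difference the start site counts were 2 at 30 ppm, 2 at 3 ppm and 1 between diets in the KO, and the gene body counts 3, 1 and 1 (30 ppm, 3 ppm and between diets in the WT). The called tiles at 30 ppm fell from 3 to 1 with 10 or more reads and to 0 with thinning. Those at 3 ppm fell from 2 to 0 with thinning, which leaves fewer reads. The shares of all tiles called under these settings were not computed, so the fall cannot be compared with the genome. The median start site level in the WT at 3 ppm became 89.4% with thinning, 88.2% with a window of 500 bp and 87.8% with the RefSeq start, an alternative chosen after the data were seen, and that in the WT at 30 ppm became 85.0% with a window of 2 kb. The cause of these changes was otherwise not tested. The start sites called for genotype by limma over all genes, 1598, became 794 with a pseudocount of 0.5, 437 with 10 or more reads and 0 on the fraction scale (5620 at an unadjusted p under 0.05), with none of the 10 genes among them. Over all genes, the start sites called between KO and WT, 3184 at 30 ppm and 3463 at 3 ppm, went as low as 411 and 366 when z was divided by its robust SD and as high as 4401 and 5510 without the minimum difference, and those between diets, 244 in the KO and 155 in the WT, went as low as 7 and 7 with thinning and as high as 400 and 379 with no further read minimum. CpGs at 80% or more in both libraries of one genotype and 10% or less in both of the other numbered 645 on the autosomes and 0 in the 10 genes, so leaving them out tests nothing about these genes, and the rule cannot find a base that all 4 embryos share and the reference lacks. Without the isolated low CpGs, an alternative chosen after the data were seen, the median start site level in the WT at 3 ppm became 90.6%, and the counts of called genes stayed as they were. The other 132 recomputed counts and medians stayed within 1.5 times their value or within counting error.

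Of 760 recomputed differences of single genes, 728 kept their side of the threshold, 24 lost significance and 5 gained it, and 73 of those that kept their side, none past the threshold, changed sign. With 10 or more reads 3 changed sign and lost significance, Dazl (0.53 points) and Smc1b (-4.63 points) at the start site and Stra8 (-0.37 points) over the gene body, all KO minus WT at 30 ppm, and the cause was not tested.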
